A study of Homo sapiens with 9 samples.

Results

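The genes described here are 10 transcription factor genes of the basic leucine zipper (bZIP) class: FOS, FOSB, FOSL1 and FOSL2 of the FOS family, JUN, JUNB and JUND of the JUN family, and ATF3, MAFF and CEBPD. They were taken by symbol from a table of 60564 genes, and each symbol matched 1 row. All 10 passed a filter of at least 1 FPKM in at least 3 of 9 libraries, which kept 12747 genes. FPKM is the number of fragments per kilobase of transcript, scaled to the mapped total of the library, so levels of different genes may be set side by side. The libraries came from BxPC3, an established human cell line of pancreatic ductal adenocarcinoma, in 3 groups of 3. One group received the compound WB436B at 0.1 µM, for which the labels give a code name and no structure, another an siRNA (a small interfering RNA) that targets STAT3, and the last vehicle. The labels name neither a non-targeting siRNA nor a time of treatment, so transfection itself and the loss of STAT3 cannot be told apart. The labels call the replicates biological. All come from 1 cell line, so p-values refer to the spread among libraries of that line.

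AP-1 is a dimer of bZIP proteins. JUN proteins pair with each other or with FOS proteins through the leucine zipper, whereas FOS proteins need a JUN partner, and the basic region of the dimer reads the DNA element TGANTCA or the related cyclic AMP response element TGACGTCA. FOS, FOSB, JUN, JUNB and ATF3 are early response genes whose transcripts are made and degraded quickly after growth factor or stress signals, while FOSL1 is known to be raised by sustained ERK signalling in carcinoma cells. FOSL1 and FOSL2 lack the strong activation domain of FOS. JUNB and CEBPD are textbook targets of STAT3, CEBPD being a C/EBP factor of the acute-phase response, and MAFF is a small MAF protein without an activation domain that pairs with FOS or with cap'n'collar factors.

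By an estimate of depth, 1 FPKM stood for 14.9 to 47.2 fragments per kilobase, depending on the library. The highest was vehicle 1, and no other library exceeded 20.4. Genes at 1 FPKM or more numbered 10846 to 10903 in the WB436B libraries. They numbered 12254 to 12329 after the siRNA and 12231 to 12242 under vehicle. Whether this difference bears on the comparisons was not tested. All 6 epithelial and ductal markers (EPCAM, CDH1, KRT7, KRT8, KRT18 and KRT19) stood at 1 FPKM or more in all libraries, with a summed level of 1100 to 1220 FPKM under WB436B, 1180 to 1260 FPKM after the siRNA and 1210 to 1270 FPKM under vehicle. Of 4 leukocyte, 4 fibroblast, 3 endothelial, 3 acinar and 3 endocrine markers, none reached 1 FPKM in all libraries, and the highest single value was 2.40 FPKM for COL1A1. The summed leukocyte markers, led by CD14, were 0.725 to 0.806 FPKM under WB436B, 1.58 to 1.74 FPKM after the siRNA and 2.12 to 3.14 FPKM under vehicle, and the fibroblast sum was 0.669 to 0.788, 2.19 to 2.40 and 1.62 to 1.83 FPKM in that order. Their part in the results was not tested, and in bulk RNA fewer cells with a transcript and less of it per cell cannot be told apart. SMAD4, which this line is known to lack, was listed at 0 in all 9. STAT3 averaged 10.7 ± 0.230 FPKM under WB436B, 2.86 ± 0.242 FPKM after the siRNA and 15.8 ± 0.623 FPKM under vehicle (SD, n = 3 each).

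The promoter stretches of the JUN genes and of FOS and FOSB are shown because these 5 genes are early response or AP-1 core genes whose levels moved in different directions here. Each stretch holds the 220 bases before the RefSeq start site on GRCh38.p14, written 5′ to 3′ along the gene. They lie at chr1:58784048-58784267 on the minus strand for JUN, chr19:12791266-12791485 on the plus strand for JUNB, chr19:18281623-18281842 on the minus strand for JUND, chr14:75278608-75278827 on the plus strand for FOS and chr19:45467776-45467995 on the plus strand for FOSB. Capitals mark TGACG, the core of the cyclic AMP response element, on either strand, its palindromic form TGACGTCA, the AP-1 site variant TGACATCA on either strand, and TATAAA on the strand shown.
JUN: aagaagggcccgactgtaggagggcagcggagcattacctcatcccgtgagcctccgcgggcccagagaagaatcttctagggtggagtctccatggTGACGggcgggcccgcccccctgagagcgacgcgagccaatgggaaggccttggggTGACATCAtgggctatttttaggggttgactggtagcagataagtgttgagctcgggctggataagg
JUNB: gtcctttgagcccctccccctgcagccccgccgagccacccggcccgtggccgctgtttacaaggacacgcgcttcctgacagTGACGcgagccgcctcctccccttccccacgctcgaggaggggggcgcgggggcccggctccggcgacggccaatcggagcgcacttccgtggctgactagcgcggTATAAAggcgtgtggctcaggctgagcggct
JUND: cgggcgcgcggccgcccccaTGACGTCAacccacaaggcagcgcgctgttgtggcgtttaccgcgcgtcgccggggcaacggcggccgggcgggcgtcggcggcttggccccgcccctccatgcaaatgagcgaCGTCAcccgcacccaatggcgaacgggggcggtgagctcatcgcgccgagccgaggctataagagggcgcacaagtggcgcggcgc
FOS: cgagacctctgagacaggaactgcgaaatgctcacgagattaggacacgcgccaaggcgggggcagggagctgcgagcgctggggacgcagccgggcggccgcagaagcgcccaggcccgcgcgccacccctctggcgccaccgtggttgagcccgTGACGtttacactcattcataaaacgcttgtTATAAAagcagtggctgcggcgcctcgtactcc
FOSB: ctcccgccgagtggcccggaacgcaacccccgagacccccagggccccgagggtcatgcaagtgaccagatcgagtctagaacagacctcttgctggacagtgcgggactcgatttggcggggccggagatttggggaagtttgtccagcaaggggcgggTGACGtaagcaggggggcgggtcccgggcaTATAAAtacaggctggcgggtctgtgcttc

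The letters TGACG occurred in all 5 stretches. TATAAA began 33 bases before the start site in FOS, 31 in JUNB and 30 in FOSB, and was not found in the windows of JUN and JUND. JUN carried TGACATCA 67 bases before its start, and JUND carried the whole palindrome TGACGTCA 200 bases before its start. Over the RefSeq windows of 250 bases before to 50 bases after a start site, 8 of the 10 genes matched an entry. FOSL1 and CEBPD had none and were not searched. Those 8 genes had 10 windows, and a gene was counted if any of its windows matched, while the percentages are per window. TGACG, which is contained in TGACGTCA, was present in 7 of the 8 genes (JUN, JUNB, JUND, FOS, FOSB, FOSL2 and MAFF), against 24.6% of 35116 promoter windows. TGACGTCA was present in JUND and MAFF (1.85% of windows), TGACATCA in JUN and ATF3 (2.61%), and TATAAA in ATF3, FOS, JUNB and FOSB (7.33%). In ATF3 the TATAAA began 230 bases before the start site of its window, further away than in FOS, JUNB and FOSB. The AP-1 element TGANTCA was found in FOSL2 (7.71% of windows), the STAT-type palindrome TTCNNNGAA in MAFF (7.66%), and the CArG box bound by serum response factor in none of the 8 (1.29%). All motifs were searched on both strands except TATAAA, and a match describes letters, not binding. Sites outside the windows, or differing from these letters, were not sought, so a motif not found here may still have such a site.

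Some gene features were shared beyond the bZIP fold. In GENCODE release 29, JUN, JUNB, JUND and CEBPD have their longest coding transcript in 1 exon, 4 of 10 members against 2.08% of 10590 tested coding genes with a 3′ untranslated region. The pentamer ATTTA, the core of the AU-rich elements known to speed up decay, occurred in the 3′ untranslated region of 9 members, against 68.3% of those genes, with 5 copies in FOS, 3 in JUN and 9 in FOSL2. The longer form TTATTTATT occurred in FOS, FOSL2 and MAFF, against 7.94%. JUNB, JUND and FOSB lie on chromosome 19 and JUN and ATF3 on chromosome 1.

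**Figure D1:**
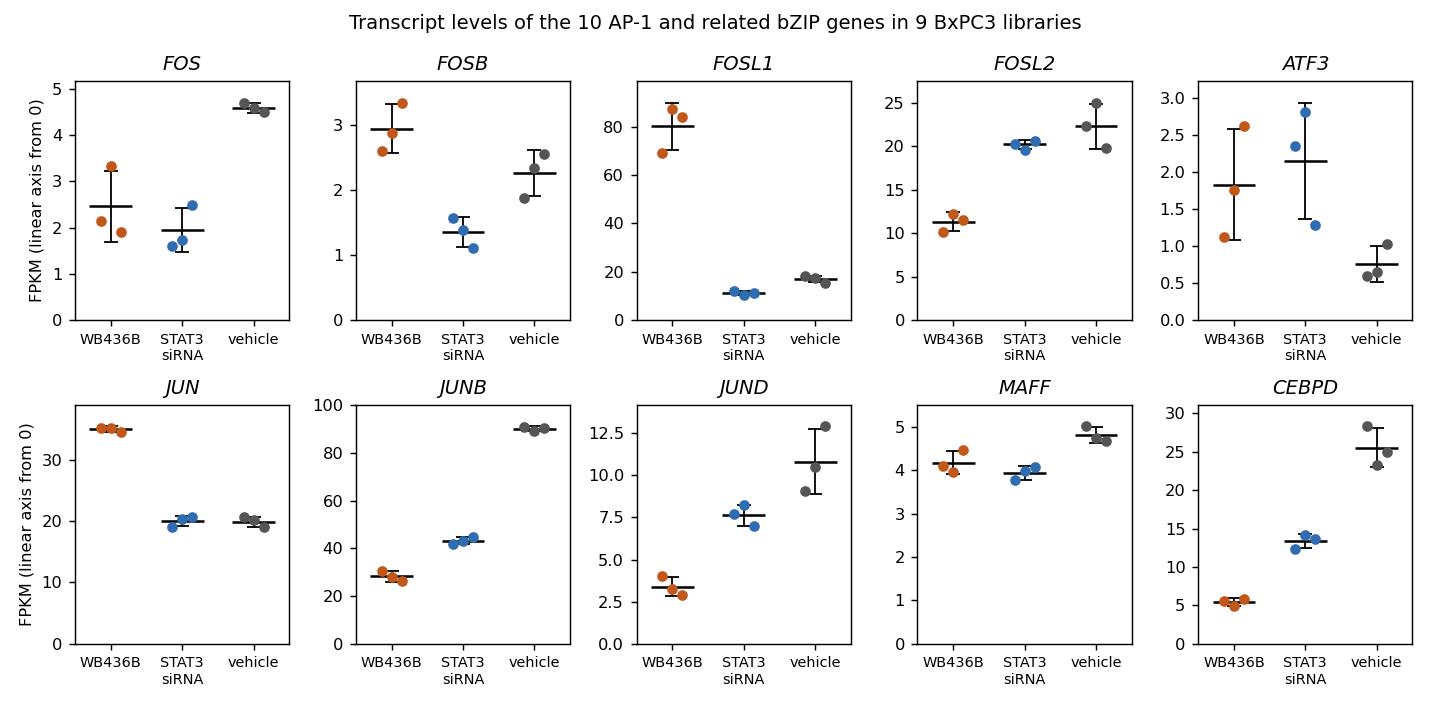
Level of each gene in FPKM on a linear axis from 0, with 1 dot per library, the mean as a bar and the SD as whiskers (n = 3 per group). FOSL1 stands at 69.0 to 87.3 FPKM in the 3 WB436B libraries and at no more than 18.1 FPKM in the other 6, while JUNB stands at 89.1 to 90.8 FPKM under vehicle and at no more than 44.6 FPKM in the other 6.

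Under vehicle the transcript levels of the 10 genes spanned 0.754 to 90.1 FPKM. JUNB was highest, at 90.1 ± 0.951 FPKM, above 97.6% of tested genes. CEBPD (25.5 ± 2.54 FPKM), FOSL2 (22.3 ± 2.60) and JUN (19.9 ± 0.845) followed, and each of these overlapped its neighbour in this order over the 3 libraries. FOSL1 (16.9 ± 1.33), JUND (10.8 ± 1.93), MAFF (4.81 ± 0.182), FOS (4.59 ± 0.105), FOSB (2.26 ± 0.348) and ATF3 (0.754 ± 0.241) came next, and of these only MAFF and FOS overlapped. With WB436B the order was FOSL1, JUN, JUNB, FOSL2, CEBPD, MAFF, JUND, FOSB, FOS and ATF3, and the neighbours from MAFF down to ATF3 overlapped. After STAT3 siRNA it was JUNB, FOSL2, JUN, CEBPD, FOSL1, JUND, MAFF, ATF3, FOS and FOSB, where FOSL2 overlapped JUN and ATF3 overlapped FOS.

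Both treatments were set against vehicle. Under WB436B 9 of 10 members passed the test, 3 higher (FOSL1, JUN and ATF3) and 6 lower (CEBPD, JUNB, JUND, FOSL2, FOS and MAFF). In that comparison 65.9% of all tested genes passed, 24.9% higher and 41.1% lower, and in 70.1% the groups did not overlap. After the siRNA 8 members passed, with ATF3 higher and JUNB, FOS, CEBPD, FOSL1, FOSB, JUND and MAFF lower, against 52.1% of all tested genes, 29.8% higher and 22.3% lower, and 60.5% whose groups did not overlap. The call is an adjusted p below 0.05 from limma with Benjamini-Hochberg adjustment over all 12747 genes, and fold changes are differences of log2(FPKM + 1). The median log2 fold change of the 10 genes was -0.44 under WB436B and -0.46 after the siRNA, against -0.13 and 0.06 over all tested genes. The WB436B median of the members was -0.34 after median-of-ratios scaling and -0.23 after quantile normalization. Over the 6 members left by a filter of 5 FPKM it was -1.18, against 0.02 over all genes left by that filter. Both comparisons share the 3 vehicle libraries.

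The scaling between libraries and the filter on low values both matter for the compound. Of all genes called under WB436B, 37.7% were higher without rescaling. Median-of-ratios scaling gave 48.0% and quantile normalization 53.0%, and they moved the median of all genes to -0.02 and 0.03. Without rescaling, a filter of 5 FPKM gave 50.4% and a median of 0.02 over the 7042 genes it kept. Among the 10 members both scalings changed the calls of FOSB and MAFF in that comparison, giving 4 higher and 5 lower.

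**Figure D2:**
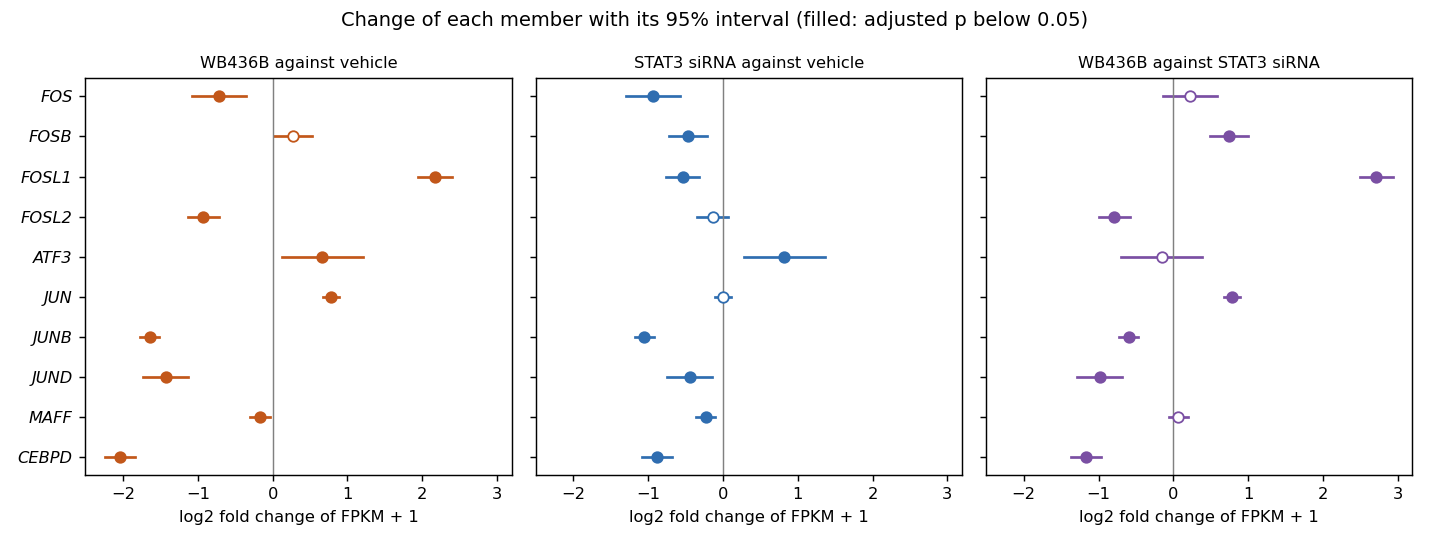
Log2 fold change of FPKM + 1 for each gene (horizontal axis) with its 95% interval from limma, in 3 panels for WB436B against vehicle, STAT3 siRNA against vehicle and WB436B against STAT3 siRNA. Filled dots have an adjusted p below 0.05; FOSL1 lies at 2.17 under WB436B and at -0.54 after the siRNA, and CEBPD at -2.04 and -0.88.

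Of the FOS family, FOSL1 (Fra-1, ENSG00000175592, chr11:65892049-65900573 on GRCh38, minus strand, GENCODE 29) changed in opposite directions under both treatments. It held 69.0, 87.3 and 84.2 FPKM under WB436B, 12.1, 10.5 and 11.3 FPKM after STAT3 siRNA, and 18.1, 17.2 and 15.5 FPKM under vehicle. No library of one group overlapped another group. The compound's mean was 4.73 times that of vehicle (log2 fold change 2.17, SE 0.0979, adjusted p = 4.2e-07), and 0.463% of tested genes had a change of larger size. After the siRNA the mean was 66.9% of vehicle (log2 fold change -0.54, adjusted p = 0.0019).

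FOSL2 (Fra-2, ENSG00000075426, chr2:28392448-28417312, plus strand), the other FOS-related antigen, fell under WB436B and was not called after the siRNA. It stood at 10.1, 12.2 and 11.5 FPKM with the compound, 20.3, 19.6 and 20.6 FPKM after the siRNA, and 22.3, 25.0 and 19.8 FPKM under vehicle. The WB436B libraries lay below all others, and the siRNA libraries lay within the range of vehicle except for 19.6 FPKM. The log2 fold change was -0.92 under WB436B (SE 0.0900, adjusted p = 2.9e-05). After the siRNA it was -0.13, with a 95% interval of -0.34 to 0.07 (adjusted p = 0.24), and the direct difference of WB436B from the siRNA was -0.79 (adjusted p = 8.9e-05).

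FOS (ENSG00000170345, chr14:75278774-75282230, plus strand), the founding member of the family, was low in all groups. Its libraries held 2.14, 3.33 and 1.90 FPKM under WB436B, 1.60, 1.74 and 2.48 FPKM after the siRNA, and 4.70, 4.58 and 4.49 FPKM under vehicle. All treated libraries lay below the vehicle libraries, and both treated groups overlapped each other. FOS was at 53.5% of the vehicle mean under WB436B (log2 fold change -0.72, adjusted p = 0.0038) and at 42.3% after the siRNA (log2 fold change -0.94, adjusted p = 0.0013). The direct difference of 0.22, with a 95% interval of -0.14 to 0.59, was not called (adjusted p = 0.25), but it was under quantile normalization (0.53, adjusted p = 0.016).

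FOSB (ENSG00000125740, chr19:45467995-45475179, plus strand) stood at 2.60, 2.87 and 3.34 FPKM under WB436B, 1.57, 1.39 and 1.11 FPKM after the siRNA, and 1.88, 2.34 and 2.56 FPKM under vehicle. The 3 groups did not overlap, although the lowest WB436B library (2.60 FPKM) lay just above the highest vehicle library (2.56 FPKM). FOSB fell after the siRNA to 59.8% of the vehicle mean (log2 fold change -0.47, adjusted p = 0.0072). Under WB436B its log2 fold change of 0.27 missed the threshold (adjusted p = 0.057). It passed with equal totals (0.32, adjusted p = 0.027), median-of-ratios scaling (0.37, adjusted p = 0.014) and quantile normalization (0.53, adjusted p = 0.0033), without vehicle 3 (0.34, adjusted p = 0.039) and without WB436B 1 (0.33, adjusted p = 0.045), and by a narrow margin without siRNA 3 (0.27, adjusted p = 0.0499).

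The JUN family had JUN itself (ENSG00000177606, chr1:58780788-58784327, minus strand) higher under WB436B. It held 35.2, 35.2 and 34.5 FPKM with the compound, 19.0, 20.3 and 20.6 FPKM after STAT3 siRNA, and 20.6, 20.2 and 19.0 FPKM under vehicle. The WB436B libraries lay above all others, while the siRNA and vehicle libraries covered the same range. JUN was 1.76 times the vehicle mean under WB436B (log2 fold change 0.78, SE 0.0464, adjusted p = 1.6e-06). After the siRNA the log2 fold change was 0.0047, with a 95% interval of -0.10 to 0.11 (adjusted p = 0.94), and its sign depended on the scaling and on single libraries.

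JUNB (ENSG00000171223, chr19:12791496-12793315, plus strand), a JUN protein that activates weakly and can restrain JUN, was lower in both treated groups. Its level was 30.4, 28.1 and 26.2 FPKM under WB436B, 41.6, 43.0 and 44.6 FPKM after the siRNA, and 90.8, 89.1 and 90.6 FPKM under vehicle. The 3 groups were far apart relative to their spread. JUNB was at 31.3% of the vehicle mean with the compound (log2 fold change -1.64, adjusted p = 1.2e-07) and at 47.8% after the siRNA (-1.05, adjusted p = 2.4e-06). A share of 14.2% of its exon bases is also covered by HOOK2 on the other strand, and whether fragments were counted by strand is not given. HOOK2 stood at 4.17 ± 0.152 FPKM under WB436B, 5.72 ± 0.641 FPKM after the siRNA and 6.71 ± 0.483 FPKM under vehicle.

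JUND (ENSG00000130522, chr19:18279760-18281622, minus strand), the JUN member usually present in resting cells, stood at 4.02, 3.24 and 2.90 FPKM under WB436B, 7.70, 8.21 and 6.97 FPKM after the siRNA, and 9.09, 10.5 and 12.9 FPKM under vehicle. The groups did not overlap. It was at 31.2% of the vehicle mean with the compound (log2 fold change -1.43, adjusted p = 2.1e-05). After the siRNA it was at 70.3% (-0.45, adjusted p = 0.020), a call that was lost without vehicle 3 (-0.32, adjusted p = 0.058), when siRNA 3 was left out (-0.39, adjusted p = 0.068) and when no gene was filtered out (adjusted p = 0.054).

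The make-up of both families differed between groups. FOSL1 made up 82.8% ± 0.596 of the summed FPKM of the 4 FOS genes under WB436B, 32.5% ± 1.35 after the siRNA and 36.7% ± 1.71 under vehicle (SD, n = 3 each). FOSL2 made up 11.7% ± 0.349, 58.0% ± 0.988 and 48.3% ± 2.18 in the same groups, and FOS 2.53% ± 0.634, 5.57% ± 1.28 and 9.99% ± 0.645. JUN held 52.6% ± 1.87 of the summed FPKM of the 3 JUN genes under WB436B, 28.3% ± 0.355 after the siRNA and 16.5% ± 0.873 under vehicle. For JUNB the shares were 42.4% ± 1.25, 60.9% ± 0.804 and 74.6% ± 0.721. None of the FOSL1, FOSL2, FOS, JUN and JUNB shares overlapped between any of the groups, and a two-sided exact permutation test gave p = 0.1 for each of these differences, the smallest that 3 against 3 libraries allow. The share of JUND overlapped between siRNA and vehicle (exact p = 0.2), and that of FOSB between siRNA and both other groups (exact p = 0.3 against vehicle and 0.2 for WB436B against siRNA).

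Summed over the FOS genes, the level was 96.8 ± 11.5 FPKM under WB436B, 34.8 ± 1.34 FPKM after the siRNA and 46.1 ± 3.49 FPKM under vehicle. Summed over the JUN genes it was 66.6 ± 3.08 FPKM, 70.7 ± 2.07 FPKM and 121 ± 1.42 FPKM in that order of groups. The FOS sum thus exceeded the JUN sum in the WB436B libraries and was below it in the others.

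**Figure D3:**
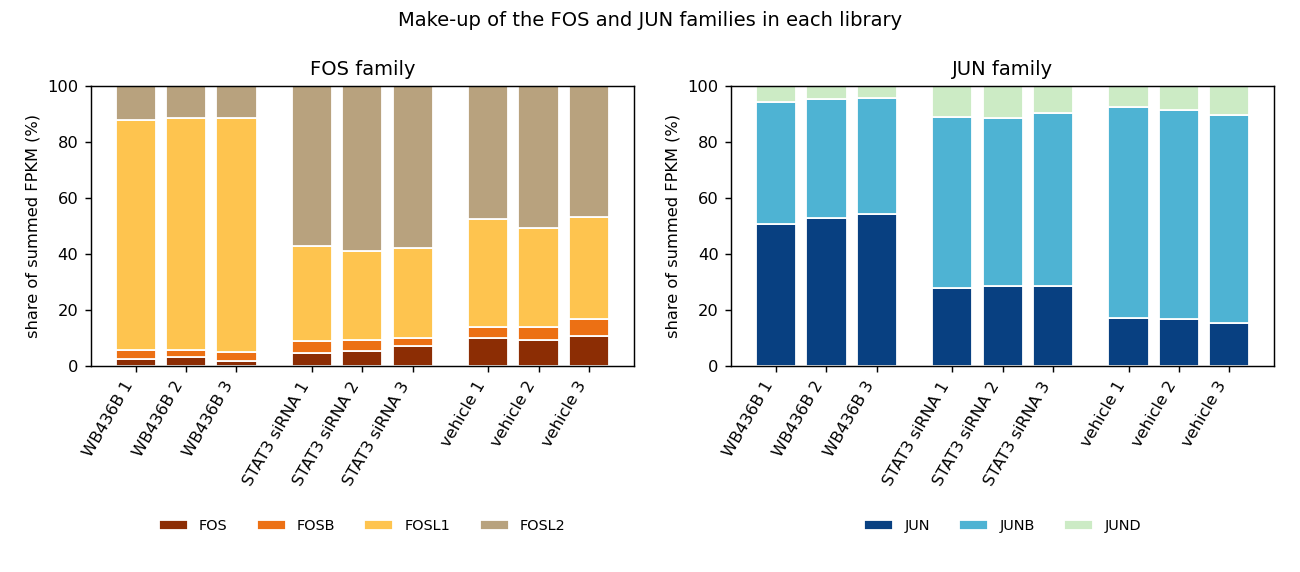
Share of each gene in the summed FPKM of the FOS family (left) and of the JUN family (right), in percent, with 1 bar per library. FOSL1 fills 82.3 to 83.4% of the FOS bars under WB436B, and JUN fills 50.6 to 54.3% of the JUN bars there, against 15.5 to 17.1% under vehicle.

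CEBPD (ENSG00000221869) had the largest decrease of the 10 under WB436B. It held 5.52, 4.87 and 5.89 FPKM with the compound, 12.4, 14.2 and 13.6 FPKM after the siRNA, and 28.3, 23.3 and 25.0 FPKM under vehicle. The groups did not overlap. It was at 21.3% of the vehicle mean under WB436B (log2 fold change -2.04, adjusted p = 3.6e-07) and at 52.6% after the siRNA (-0.88, adjusted p = 7.3e-05).

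ATF3 (ENSG00000162772, chr1:212565334-212620777, plus strand), a stress-induced factor that pairs with JUN proteins, was the lowest of the 10 under vehicle and the most variable. Its libraries held 1.12, 1.76 and 2.62 FPKM under WB436B, 2.35, 2.81 and 1.28 FPKM after the siRNA, and 0.589, 0.643 and 1.03 FPKM under vehicle. The treated libraries all lay above vehicle, but ATF3 passed the filter on low values mainly through them. The log2 fold changes were 0.67 under WB436B (adjusted p = 0.034) and 0.82 after the siRNA (adjusted p = 0.018). The WB436B call was lost without vehicle 1 (adjusted p = 0.094), vehicle 2 (0.088), WB436B 2 (0.074) or WB436B 3 (0.11), and the siRNA call without vehicle 1 (0.057), vehicle 2 (0.054), siRNA 1 (0.058) or siRNA 2 (0.064). Without the filter neither was called (adjusted p = 0.085 and 0.053). The fewest fragments estimated behind any of its values were 10.0 per kilobase.

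MAFF (ENSG00000185022, chr22:38200767-38216511, plus strand) had the smallest called changes. It stood at 4.09, 3.97 and 4.47 FPKM under WB436B, 3.77, 3.99 and 4.08 FPKM after the siRNA, and 5.01, 4.74 and 4.67 FPKM under vehicle. The treated libraries lay just below vehicle. The log2 fold change after the siRNA was -0.23 (adjusted p = 0.0083), which missed the threshold with equal totals (-0.19, adjusted p = 0.060). Under WB436B it was -0.17 (adjusted p = 0.028). That call was lost with equal totals (-0.11, adjusted p = 0.23) and median-of-ratios scaling (-0.06, adjusted p = 0.37), and under quantile normalization the sign turned (0.01, adjusted p = 0.86). It was also lost without vehicle 1 (-0.14, adjusted p = 0.089), vehicle 2 (-0.18, 0.054), WB436B 1 (-0.16, 0.077) or WB436B 2 (-0.14, 0.094).

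The direct comparison of WB436B with STAT3 siRNA asks whether both treatments differ. FOSL1 (log2 fold change 2.71, adjusted p = 2.5e-07), JUN (0.78, adjusted p = 2.6e-06) and FOSB (0.74, adjusted p = 0.00043) were higher under WB436B. CEBPD (-1.17, adjusted p = 9.0e-06), JUND (-0.98, adjusted p = 0.00023), FOSL2 and JUNB (-0.59, adjusted p = 3.0e-05) were lower. These 7 of 10 stand beside 64.1% of all tested genes, 20% higher and 44.1% lower, and 70.2% whose groups did not overlap. Not called were FOS, ATF3 (-0.15, 95% interval -0.69 to 0.39) and MAFF (0.06, interval -0.06 to 0.19). MAFF was called higher under WB436B with median-of-ratios scaling (0.23, adjusted p = 0.0072) and quantile normalization (0.29, adjusted p = 0.0021), and quantile normalization gave 5 members higher and 4 lower. The median of all genes was -0.18 in this comparison and -0.02 with median-of-ratios scaling. The share of calls that were higher was 31.2% and, with that scaling, 48.8%. A filter of 5 FPKM without rescaling gave a median of -0.06 and a share of 44.2%.

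Genes whose 9-library pattern lay nearest to a member were found by the Euclidean distance of log2(FPKM + 1) after subtracting the vehicle mean. JUNB was nearest to TCEA3 (distance 0.23) and to CEBPB (0.24). The nearest to CEBPD were GABRE (0.34) and FLOT2 (0.35), and those to FOS were AC002384.1 (0.32) and AL139289.2 (0.49), which GENCODE 29 lists as an antisense gene. Without strand its fragments and those of its partner gene cannot be told apart. FOSL1 had no close neighbour, since LYAR and PALM2-AKAP2, its nearest, lay at 1.39 and 1.42.

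Of 41 other bZIP genes, 29 were tested. Under WB436B 2 of them rose and 19 fell (72.4% called, against 65.9% of all genes), with a median log2 fold change of -0.40 against -0.13. With median-of-ratios scaling 6 rose and 16 fell. CEBPB, a C/EBP factor related to CEBPD, stood at 10.1 ± 0.553 FPKM with the compound and 34.1 ± 3.43 FPKM under vehicle (log2 fold change -1.66, adjusted p = 3.8e-07). CREB3L1 (-1.52), the circadian output factor DBP (-1.33) and CREBZF (-1.04) were the others with the smallest p. Of the 19 that fell, 3 (CREB3L1, CREB3L4 and DBP) were below 1 FPKM in all WB436B libraries and passed the filter through the other groups. After the siRNA 12 rose and 9 fell (72.4% called, against 52.1%), with a median of 0.06, as over all genes (-0.0046 with median-of-ratios scaling). BACH1, a haem-sensing repressor that pairs with small MAF proteins, fell by 0.97 on the log2 scale, CEBPB by 0.996 and NFE2L3 by 0.79, while ATF5 rose to 29.7 ± 1.39 FPKM after the siRNA, against 13.7 ± 1.12 FPKM under vehicle (1.06, adjusted p = 3.5e-05). In the direct comparison 2 of the 29 were higher under WB436B and 14 lower, with a median of -0.26 against -0.18. That is 55.2% called, against 64.1% of all genes, of which 20% were higher and 44.1% lower. CREB3L1, CREB3L4 and DBP are among those 14. With median-of-ratios scaling 7 were higher and 14 lower.

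**Figure D4:**
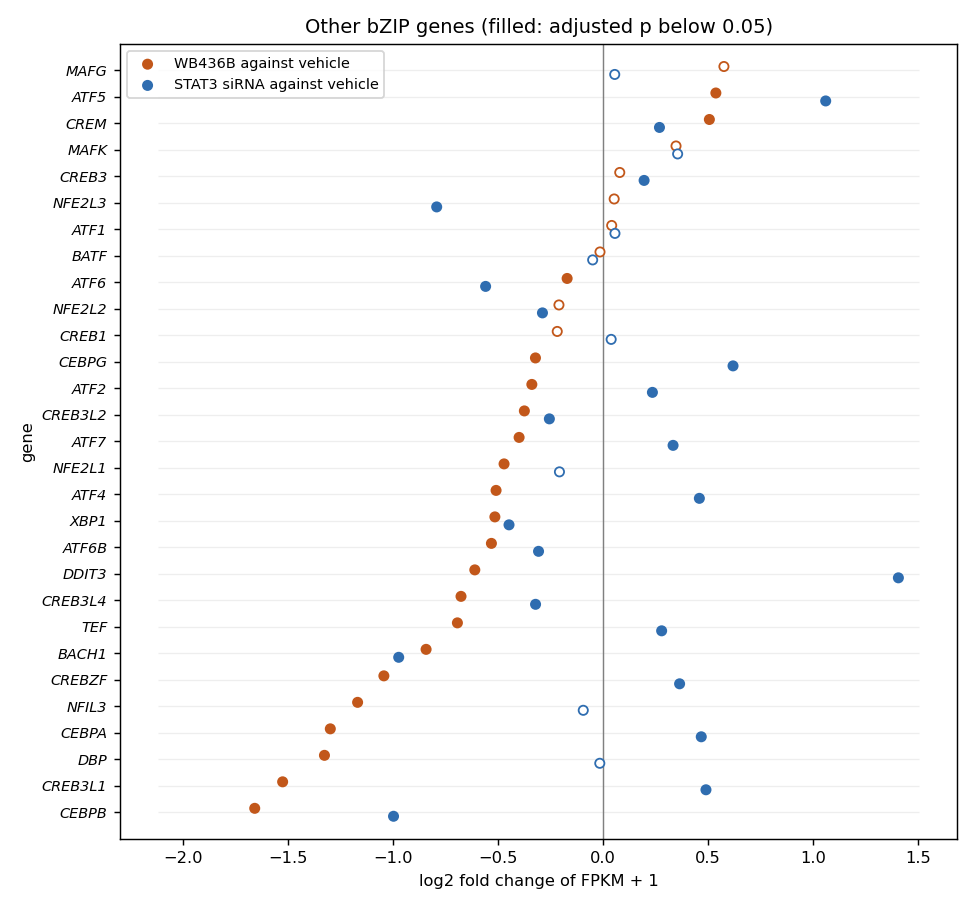
Log2 fold change of FPKM + 1 (horizontal axis) of the 29 tested bZIP genes outside the 10 members, with WB436B against vehicle in orange and STAT3 siRNA against vehicle in blue, and filled dots for an adjusted p below 0.05. CEBPB lies at -1.66 and -0.996, and ATF5 at 0.54 and 1.06.

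Kinases of the ERK, JNK and p38 pathways, which phosphorylate AP-1 proteins or induce their genes, and the serum response factors were tested in 30 of 35 cases. Under WB436B 3 rose and 15 fell (60% called, against 65.9% of all genes, and median -0.23 against -0.13), and with median-of-ratios scaling 4 rose and 10 fell. MAPK13 (p38 delta, -0.89), MAP3K2 (-0.82) and MAP3K8 (-1.07) fell, and SRF, the factor that binds the CArG box of early response genes, rose to 16.6 ± 1.29 FPKM under WB436B, against 8.61 ± 0.442 FPKM under vehicle (0.87, adjusted p = 4.8e-06). After the siRNA 3 rose and 8 fell (36.7% called, against 52.1% of all genes, with a median of 0.02 against 0.06, or -0.05 with median-of-ratios scaling), with MAP3K8 at -0.91, RPS6KA3 at -0.68, the ERK1 gene MAPK3 at -0.83 and MAPK12 at 0.63. The kinase list gave 3 higher and 14 lower for WB436B against the siRNA (56.7% called, against 64.1%, and median -0.26 against -0.18), which became 5 and 7 under median-of-ratios scaling.

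Other immediate early genes were tested in 21 of 28 cases. With WB436B 4 rose and 7 fell (52.4% called, against 65.9% of all genes), with a median of 0.05 against -0.13. Median-of-ratios scaling gave 6 higher and 7 lower with a median of 0.17, and a filter of 5 FPKM turned the median to -0.35. EGR1, a zinc finger factor induced with FOS by growth factors, stood at 17.9 ± 0.901 FPKM under WB436B, 12.9 ± 0.681 FPKM after the siRNA and 53.4 ± 0.986 FPKM under vehicle. CTGF, a matricellular growth factor gene, rose under WB436B (2.45 ± 0.240 FPKM, against 0.554 ± 0.0400 FPKM under vehicle, adjusted p = 1.2e-06), as did CYR61, while the survival gene MCL1 fell by 0.70 on the log2 scale. Of the 4 that rose, CTGF and DUSP2 were below 1 FPKM in all vehicle libraries and passed the filter only through treated libraries. After the siRNA 2 rose and 10 fell (57.1% called, against 52.1%, and median -0.25 against 0.06), with IER5 at -0.87, MCL1 at -0.56 and CYR61 at 0.69. Between WB436B and the siRNA 7 were higher and 4 lower (52.4% called, against 64.1%, and median 0.32 against -0.18), and with median-of-ratios scaling 9 were higher and 1 lower. CTGF is also among the 2 that rose after the siRNA, and DUSP2 among the 7 higher under WB436B than after the siRNA. SRF stands in this list and in that of the kinases.

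Textbook AP-1 targets, such as matrix proteases, EGF-family ligands and cytokines, were tested in 29 of 35 cases. After STAT3 siRNA 4 rose and 23 fell (93.1% called, against 52.1% of all genes), with a median of -0.65 against 0.06. Among those with the smallest p were MMP1, HBEGF (an EGF receptor ligand, -1.86) and IL1A (-1.44). Under WB436B 12 rose and 11 fell (79.3% called, against 65.9%), with a median of 0.06 against -0.13. With median-of-ratios scaling 14 rose and 9 fell, with a median of 0.19. CCND1 rose to 73.8 ± 1.07 FPKM under WB436B, against 32.5 ± 1.43 FPKM under vehicle, ETS1, itself a transcription factor, to 25.7 ± 0.842 FPKM, against 13.8 ± 0.223 FPKM, and IL1A to 126 ± 1.99 FPKM, against 72.1 ± 1.87 FPKM. The cytokine gene CSF2 held 5.19, 4.60 and 5.02 FPKM under WB436B and 0.264, 0.111 and 0.411 FPKM after the siRNA, against 0.0842 FPKM in vehicle 1 and a listed 0 in vehicle 2 and 3. It passed the filter only through the WB436B libraries and is counted among the targets that rose in each comparison. HMOX1 was below 1 FPKM in all vehicle and WB436B libraries and passed only through the siRNA libraries. It counts among the 4 that rose after the siRNA and the 11 that fell under WB436B. MMP9 was below 1 FPKM in all siRNA libraries and passed through the other groups. It counts among the 23 that fell after the siRNA.

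In the direct comparison 22 of the 29 AP-1 targets were higher under WB436B and 4 lower (89.7% called, against 64.1%). The median was 0.76, against -0.18 over all genes. CSF2 and MMP9 are among the 22, and HMOX1 is among the 4. With median-of-ratios scaling 24 were higher and 3 lower, with a median of 0.97. MMP1, an interstitial collagenase, held 76.9, 79.0 and 76.0 FPKM under WB436B, 6.12, 5.45 and 6.70 FPKM after the siRNA, and 82.5, 84.3 and 84.2 FPKM under vehicle. Its log2 difference of WB436B from the siRNA was 3.47 (adjusted p = 1.5e-08), and that of WB436B from vehicle was -0.11, with a 95% interval of -0.25 to 0.03 (adjusted p = 0.13). Whether the levels of the AP-1 genes have a part in those of the targets was not tested.

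**Figure D5:**
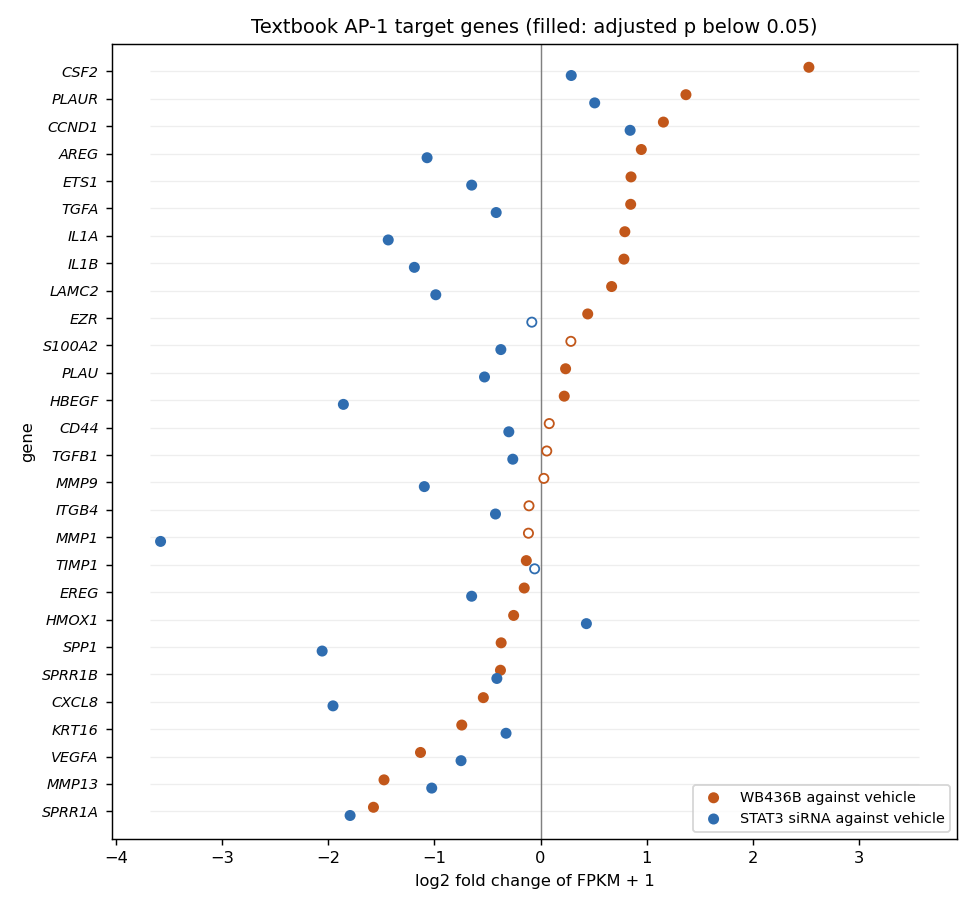
Log2 fold change of FPKM + 1 (horizontal axis) of 28 of the 29 tested textbook AP-1 targets, with WB436B against vehicle in orange and STAT3 siRNA against vehicle in blue, and filled dots for an adjusted p below 0.05. Genes are ordered by the change under WB436B, and of those drawn 12 orange dots are called above 0 and 10 below, against 4 blue dots above and 22 below.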

How the data were processed

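The 9 RNA-seq libraries were made from total RNA of BxPC3 cells with Illumina's standard preparation, per the labels' protocols. The authors deposited 1 table of FPKM with a column per library. Bowtie 0.12.2 and mm8, a mouse build, appear in the submitters' processing notes, whereas the identifiers are human Ensembl genes, which leaves the build of the values uncertain. The sources used here do not give the FPKM program, the annotation or strandedness. Gene positions and features are from GENCODE release 29, which held 96.5% of identifiers, and promoters are from RefSeq on GRCh38.p14.

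Depth was estimated from the spacing of low FPKM in single-transcript genes. FPKM carry no counts, so no count model was used. The 12747 genes (21% of the table) that reached 1 FPKM in 3 or more libraries were fitted as log2(FPKM + 1) by limma-trend (limma 3.58.1, R 4.3.3, a mean per group, all 9 libraries, 6 residual degrees of freedom). Tests were two-sided, p-values were adjusted over all tested genes after Benjamini-Hochberg with a threshold of 0.05, and the fit was checked on simulated data. SE means standard error. A pseudocount of 1 understates the change of weakly expressed genes. No pair of libraries shared an identical value of 1 FPKM or more. Shares were compared with scipy 1.17.1.

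The members, 4 gene lists and tests were chosen with earlier results of these data known. All members are named, and of each list up to 4 genes with the smallest adjusted p against vehicle whose groups do not overlap, except 1 gene that is not reported here and is left out of the plot of AP-1 targets. Other pseudocounts (0.1 and 0.5), filters, scalings, variance models, a replicate block and leaving out each library were tried.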

Additional observations from a re-analysis of the deposited data

How the results depend on the processing

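Each of the 30 log2 fold changes of the members was recomputed under up to 21 settings, 618 values in all, of which 575 kept their direction and their side of the threshold. In 20 of the 30 every value did. The others were FOS and ATF3 for WB436B against STAT3 siRNA, then JUN, JUND, ATF3 and MAFF after the siRNA, FOSB, ATF3 and MAFF under WB436B, and MAFF for WB436B against the siRNA. The sign turned for JUN after the siRNA with median-of-ratios scaling (-0.067, also with the replicate block), while leaving out single libraries gave -0.029 to 0.037. It turned for ATF3 in WB436B against the siRNA under quantile normalization (0.18) and over left-out libraries (-0.37 to 0.04), and for MAFF under WB436B with quantile normalization (0.013). The cause was not tested.

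A filter of 5 FPKM leaves fewer genes to test. After the siRNA it called 4 of 6 members, beside 4138 of all 7042 genes it kept. Of those 7042 it called 4860 under WB436B and 4629 between treatments. The main fit called 6638, 8402 and 8175 of 12747 genes in that order, so the counts are over sets of different size. Between treatments the filter called 11 of 20 kinase genes, against 17 of 30. The other settings kept the totals of calls over both directions within 1.5 times, while counts in 1 direction moved by more in some lists.

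The replicate numbers were not taken to pair the libraries. Deviations of same-numbered libraries correlated at 0.042, 0.12 and 0.16 between siRNA and vehicle, where 6 of 6 libraries correlated best with their own number, but at -0.044 to 0.038 between WB436B and vehicle, where 2 of 6 did. With the replicate block 8 members were called after the siRNA, 7 under WB436B (ATF3 and MAFF missed the threshold, adjusted p = 0.056 and 0.054) and 7 between treatments. Over all 12747 genes it called 6312, 8152 and 7959.

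Depth limits ATF3, FOSB and FOS most, since the fewest fragments lie behind their values.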

Other observations

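MYC, one of the immediate early genes, was chosen for mention after its values were seen, since its libraries spread within groups. It held 14.1, 13.1 and 14.8 FPKM under WB436B, 10.5, 11.3 and 3.49 FPKM after STAT3 siRNA, and 2.93, 4.30 and 13.9 FPKM under vehicle, and no comparison called it. Vehicle 3 lay near the WB436B libraries for MYC, while for FOSL1, JUN and JUNB it held 15.5, 19.0 and 90.6 FPKM, beside the other vehicle libraries.

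DDIT3 and ATF4, of the other bZIP genes, were also chosen for mention after their values were seen. DDIT3 (CHOP) held 8.06, 6.60 and 6.36 FPKM under WB436B, 27.4, 29.3 and 38.0 FPKM after STAT3 siRNA, and 10.7, 9.84 and 13.2 FPKM under vehicle. ATF4 held 113, 105 and 101 FPKM under WB436B, 203, 209 and 216 FPKM after the siRNA, and 147, 149 and 160 FPKM under vehicle. Neither gene's groups overlapped, and in limma's direct comparison of WB436B with the siRNA DDIT3 was at -2.02 and ATF4 at -0.97 on the log2 scale.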
